A study of Rattus norvegicus with 9 samples.

Results

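The genes described here are 9 genes of blood vessel endothelium and of its growth factor, vascular endothelial growth factor A: Cldn5, Kdr, Flt1, Tie1, Tek, Vwf, Pecam1, Vegfa and Eng. They were taken by symbol from the array annotation, using probe sets that carry 1 symbol only. On that rule 8 of the 9 genes were measured, by 11 probe sets out of 15866 tested, among 10411 genes in all, and Tek was not analysed here. The brightest probe set by mean over 9 arrays stood for each gene, and the further probe sets of Flt1 (2) and Vegfa (1) served as a check. In rat ventral midbrain, tissue of embryonic day 11 (MesE11, 3 arrays) was compared with primary cultures of dissociated cells from such tissue after 9 days in vitro (MesPC, 6 arrays). Embryos of 4 pregnant rats were mixed into 3 groups, so each tissue array holds pooled embryos. No strain, genotype or treatment was given in the labels, and both groups come from the same stage and region. The title asks how the expression profile of neuronal primary cultures compares with that of the embryonic midbrain.

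Blood vessels grow into the embryonic neural tube from outside, guided by VEGF-A that neural cells secrete. VEGF-A acts on endothelial cells mainly through the receptor tyrosine kinase VEGFR2, encoded by Kdr, while VEGFR1, encoded by Flt1, binds the ligand tightly and signals weakly. Endothelial cells are joined by claudin-5 and PECAM-1, carry the receptors Tie1, Tie2 (encoded by Tek) and endoglin, and store von Willebrand factor. VEGF-A itself is made by many other cell types, among them neurons, glia and fibroblasts. In bulk samples such as these, fewer cells of a type and less RNA per cell cannot be told apart.

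The promoters of 5 genes that changed are shown because 4 of these genes fell together while the ligand gene rose, and the letters before their starts can be compared. Each run is the 250 bases before the start of the gene, from RefSeq on the build GRCr8, read 5′ to 3′ on the gene's strand, with motif matches in capitals. Windows were matched for 6 of the 8 measured genes, not for Vwf or Pecam1. The Cldn5 window lies at chr11:95718599-95718848 on the minus strand and the Kdr window at chr14:32571813-32572062 on the plus strand. Tie1 has its window at chr5:137304982-137305231, minus strand, Eng at chr3:36332029-36332278, plus strand, and Vegfa at chr9:22452604-22452853, plus strand. Vegfa has 2 windows in the table, and the more upstream one is shown.
Cldn5: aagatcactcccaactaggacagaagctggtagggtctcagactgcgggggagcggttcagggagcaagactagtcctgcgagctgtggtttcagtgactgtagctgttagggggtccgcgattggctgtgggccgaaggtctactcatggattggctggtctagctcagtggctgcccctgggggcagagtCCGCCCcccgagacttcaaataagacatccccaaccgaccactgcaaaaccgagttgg
Kdr: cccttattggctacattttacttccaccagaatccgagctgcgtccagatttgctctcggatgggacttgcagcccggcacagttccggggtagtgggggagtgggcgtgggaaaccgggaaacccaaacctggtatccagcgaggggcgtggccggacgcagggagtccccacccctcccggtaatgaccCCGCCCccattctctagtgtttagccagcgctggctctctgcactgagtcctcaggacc
Tie1: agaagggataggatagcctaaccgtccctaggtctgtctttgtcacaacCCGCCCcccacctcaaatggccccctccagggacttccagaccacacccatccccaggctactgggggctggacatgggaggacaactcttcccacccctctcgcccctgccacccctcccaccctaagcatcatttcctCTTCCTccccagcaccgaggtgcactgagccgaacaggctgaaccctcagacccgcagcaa
Eng: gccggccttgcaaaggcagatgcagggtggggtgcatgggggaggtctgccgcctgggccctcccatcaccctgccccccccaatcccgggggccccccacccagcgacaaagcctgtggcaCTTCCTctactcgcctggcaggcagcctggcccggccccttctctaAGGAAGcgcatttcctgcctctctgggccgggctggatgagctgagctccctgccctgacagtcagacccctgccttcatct
Vegfa: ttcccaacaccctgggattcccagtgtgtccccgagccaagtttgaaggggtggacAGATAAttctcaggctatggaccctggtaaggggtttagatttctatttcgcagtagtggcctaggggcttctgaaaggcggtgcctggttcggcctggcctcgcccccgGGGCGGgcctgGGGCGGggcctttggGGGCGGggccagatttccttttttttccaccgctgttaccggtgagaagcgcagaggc

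The windows were searched for 4 short motifs on both strands. The ETS factor core AGGAAG was found 2 times in the Eng window and 1 time in that of Tie1, and 0 times in those of Cldn5, Kdr and Vegfa, while 29.5% of 33469 promoters of the same length held it. The GC box GGGCGG stood in the windows of Cldn5 (1), Kdr (1), Tie1 (1) and Vegfa (3), against 30.5% of all promoters. The 5 windows shown were 58.4% to 68.0% G or C, above the median of 51.2% over all promoters. The shares over all promoters were not matched for this. The GATA core AGATAA was present in the Vegfa window alone among the 5 shown, and 10.3% of promoters held it. The hypoxia response core ACGTG was in none of the 5, against 16.6% of promoters. No match of one motif overlapped a match of another in the 5 windows, and a match is a description of the letters only. The other Vegfa window, chr9:22460028-22460277 on the plus strand, held 0 matches of any of the 4 motifs. The window of Flt1, not shown because its call depends on the processing, held the ETS core 2 times and the GC box 3 times.

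Most of the endothelial genes were lower in culture, while the ligand Vegfa was higher. Of the 8 genes measured, Cldn5, Kdr, Tie1, Vwf, Pecam1 and Eng fell, Vegfa rose and Flt1 did not pass the threshold in limma's test, whose p-values are adjusted by the Benjamini-Hochberg method. Across all 10411 genes 22.7% were called lower and 21.9% higher. The median difference of the 8 genes was -0.72 on the log2 scale, against -0.06 over all genes. In 7 of the 8 all 6 culture values lay below the 3 tissue values, as in 23.3% of all genes, and in Vegfa all lay above, as in 21.1%. The labels call the samples independent but do not tie arrays to the 3 groups of embryos or to the duplicate cultures, so the p-values reflect the spread among these arrays alone, which may be technical. Differences are MesPC minus MesE11 ± the moderated standard error, from 6 and 3 arrays.

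**Figure D1:**
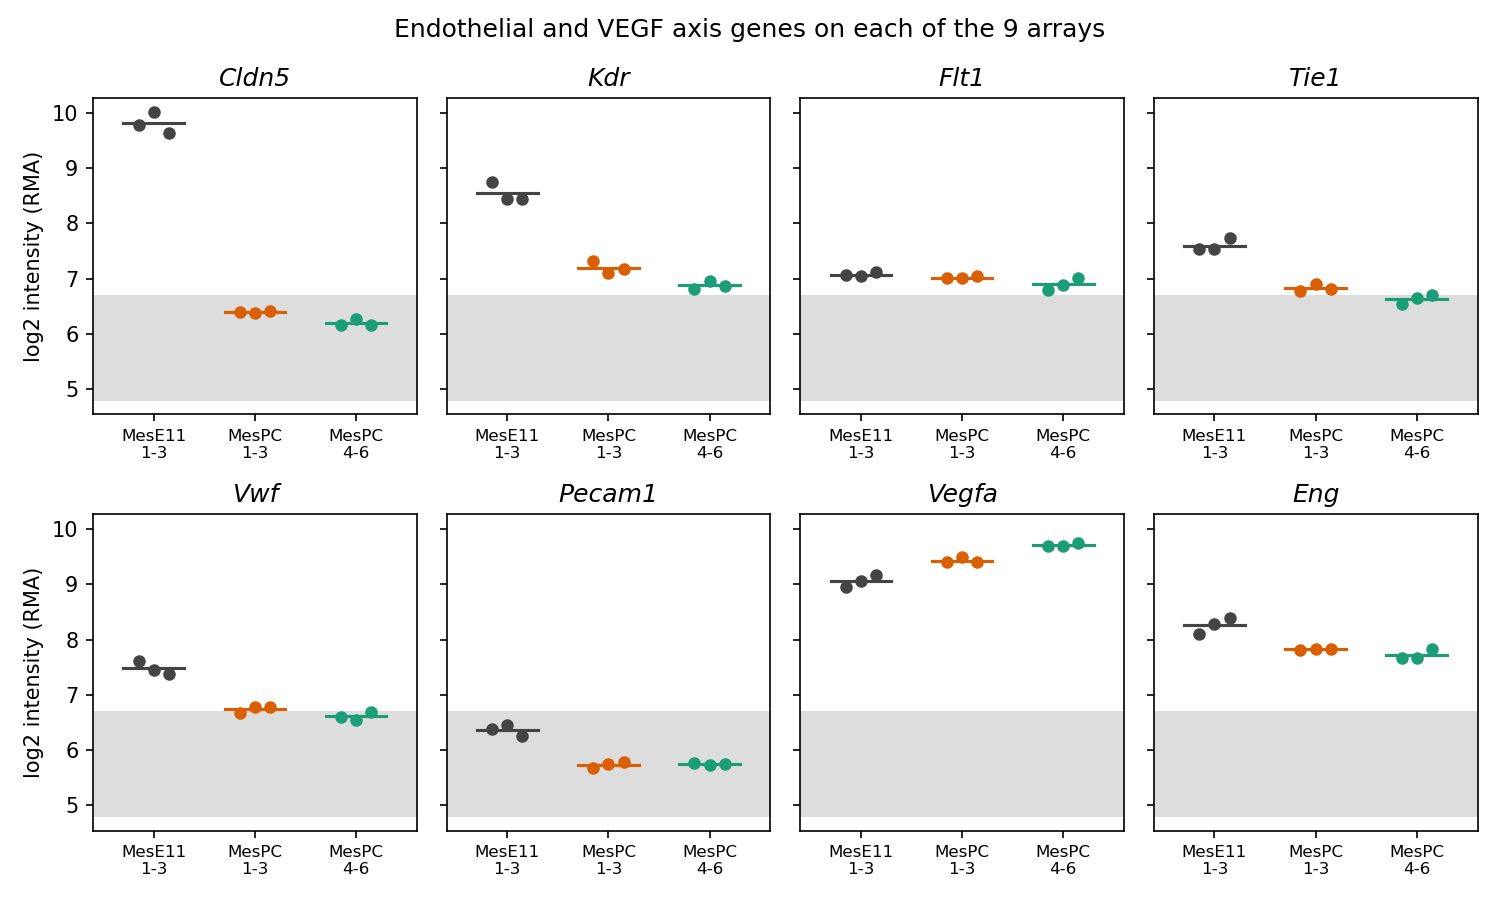
Each point is the log2 intensity (RMA) of 1 array for the brightest probe set of each gene, with a line at the group mean, in MesE11 replicates 1 to 3 and MesPC replicates 1 to 3 and 4 to 6. The grey band is the range of 27 bacterial control probe sets, 4.80 to 6.68, and the culture values of Cldn5 lie inside it while its tissue values lie between 9.64 and 10.01.

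Several culture values lie where probe sets without a target read. The 27 bacterial control probe sets, which match no rat transcript, read between 4.80 and 6.68 across the arrays, and this range is used here as the background. A fold computed against a value inside it understates the true difference if that value is background. The arrays were also not scaled exactly alike at the dim end: the lower quartile of all probe sets was 7.15 to 7.21 in tissue, 7.09 to 7.11 in culture replicates 1 to 3 and 6.98 to 7.07 in replicates 4 to 6.

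Vegfa encodes the secreted ligand. Its brightest probe set read 8.96, 9.06 and 9.18 in tissue, and 9.40, 9.49, 9.40, 9.70, 9.69 and 9.76 in culture replicates 1 to 6. All culture values lie above all tissue values, and replicates 4 to 6 lie above replicates 1 to 3. The rise was 0.51 ± 0.10 on the log2 scale, 1.42-fold, with limma's adjusted p = 0.00248. A further Vegfa probe set, which read 8.26 to 8.34 in tissue and 8.30 to 8.50 in culture, gave 0.14 ± 0.06, 1.10-fold, and did not pass (adjusted p = 0.0668; 0.0231 without MesPC replicate 4). The 2 probe sets differ in size, and their mean gave a rise of 0.33 ± 0.06 (adjusted p = 0.00157).

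Kdr encodes VEGFR2, the main signalling receptor for VEGF-A. It read 8.76, 8.44 and 8.45 in tissue, and 7.32, 7.09, 7.18, 6.80, 6.96 and 6.87 in culture. Tissue and culture did not overlap, with the tissue minimum above the culture maximum by more than the range within either group. The fall was -1.51 ± 0.12, 2.86-fold, with adjusted p = 1.1e-05 in limma.

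Flt1, the gene of VEGFR1, moved least. Its brightest probe set read 7.06, 7.04 and 7.11 in tissue and 7.01, 7.01, 7.04, 6.79, 6.89 and 7.01 in culture. The highest culture value lies just under the lowest tissue value, by less than the rounding used here. The difference of -0.12 ± 0.06 did not pass (adjusted p = 0.164), and under quantile normalization it was -0.0011. It passed under ribosomal centring (-0.19, adjusted p = 0.0413) and as the mean of the 3 Flt1 probe sets (-0.15 ± 0.04, adjusted p = 0.0182), which makes 8 calls in place of 7. The further probe sets gave -0.16 ± 0.05 (adjusted p = 0.0230) and -0.18 ± 0.04 (adjusted p = 0.00904) in the same direction, but both read within the bacterial range on all 9 arrays. Both calls ended when the culture sets entered as a random block (adjusted p = 0.220 and 0.145), and the first also without MesE11 replicate 2 or 3 (adjusted p = 0.0703 and 0.0807).

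Tie1 encodes an endothelial orphan receptor of the angiopoietin system. It read 7.53, 7.53 and 7.73 in tissue and 6.77, 6.90, 6.82, 6.54, 6.64 and 6.71 in culture. All 6 culture values lay under every tissue value, and 2 of them were in the bacterial range. The fall was -0.87 ± 0.09, 1.82-fold, with adjusted p = 4.2e-05.

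Eng encodes endoglin, a co-receptor for TGF-beta and BMP ligands that is also found on stromal cells. It read 8.10, 8.29 and 8.40 in tissue, and 7.82, 7.84, 7.83, 7.67, 7.66 and 7.82 in culture. The groups did not overlap, and no value was in the bacterial range. The fall of -0.49 ± 0.07 was the smallest of the 6 called, 1.40-fold, with adjusted p = 6.9e-04.

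Cldn5 encodes claudin-5, the tight junction protein of brain endothelium. It read 9.78, 10.01 and 9.64 in tissue, against 6.39, 6.38, 6.41, 6.17, 6.26 and 6.17 in culture. Every culture value was within the bacterial range and no tissue value was. The fall of -3.52 ± 0.09, 11.4-fold, was the largest of the 8 genes (adjusted p = 5.4e-09), and it is a lower bound if the culture values are background.

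Pecam1 encodes the junction adhesion molecule PECAM-1, also present on platelets and leukocytes. It read 6.39, 6.45 and 6.25 in tissue and 5.68, 5.74, 5.78, 5.76, 5.73 and 5.75 in culture. The groups did not overlap, but all 9 values lay in the bacterial range, so neither level can be told from background. The difference was -0.62 ± 0.06, 1.54-fold, with adjusted p = 2.0e-05.

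Vwf encodes von Willebrand factor, which endothelial cells and megakaryocytes make. It read 7.62, 7.46 and 7.38 in tissue and 6.68, 6.77, 6.78, 6.60, 6.55 and 6.69 in culture. Culture values all lay under tissue values, and 3 of the 6 were in the bacterial range. The fall was -0.81 ± 0.07, 1.75-fold, with adjusted p = 2.2e-05.

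Other cell types moved in the same comparison, and their part in the results above was not tested. Beside the list counts that follow, 22.7% of all genes were called lower and 21.9% higher. Of 9 erythroid genes 8 fell, with a median of -2.15 and a summed intensity of 23942 to 28767 in tissue against 1473 to 1817 in culture. Hbe1, an embryonic globin, fell by 5.97 ± 0.24 on the log2 scale (adjusted p = 1.3e-07). Globin probe sets can cross-hybridise between paralogs, so each globin value is uncertain as to its member. Of 5 platelet genes, Pf4 (platelet factor 4) fell by 0.77 ± 0.07 (adjusted p = 1.8e-05), 4 did not pass (2 genes were called without MesE11 replicate 2, and 4 under ribosomal centring), and the sums ran from 834 to 852 in tissue and from 591 to 699 in culture. Leukocyte and microglia genes fell in 8 of 13, led by the complement genes C1qb (-0.78 ± 0.16), C1qa (-0.74 ± 0.08) and C1qc (-0.61 ± 0.08) and by Fcer1g (-0.60 ± 0.06), and their sums went from 2920 to 2987 in tissue to 2149 to 2359 in culture. The C1qb call ended when the culture sets entered as a random block (adjusted p = 0.0562). Ptprc, the pan-leukocyte marker CD45, named after its values were seen, was in the bacterial range on all arrays.

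Fibroblast and meningeal genes rose in 12 of 14, with summed intensities of 9681 to 10868 in tissue against 43396 to 48648 in culture, and Col3a1, a fibrillar collagen, rose by 5.56 ± 0.13 (adjusted p = 1.9e-09). Thy1, also a neuronal surface protein, fell by 0.73 ± 0.11. Astrocyte genes rose in 7 of 11, among them Aqp4, the water channel of astrocyte endfeet, by 1.84 ± 0.07 (adjusted p = 8.6e-08) on its brightest probe set, and their sums went from 12001 to 15559 in tissue to 20067 to 24763 in culture. The further Aqp4 probe sets disagree with that rise: one gave -0.42 ± 0.14 (adjusted p = 0.0371) and the other 0.05 ± 0.06 (adjusted p = 0.529). Of 13 dopaminergic and neuronal genes 10 fell. Th, the enzyme that marks dopaminergic neurons, read 11.45 to 11.66 in tissue and 8.19 to 8.81 in culture. The summed intensity of the 8 genes described here, Vegfa among them, ran from 2656 to 2805 in tissue and from 1537 to 1670 in culture. Because Vegfa rose, this sum understates the fall of the endothelial genes. The sum adds unlogged intensities, so bright genes weigh most in it. Cldn5 was the brightest of the 8 genes in tissue, with a mean of 9.81 on the log2 scale, and fell the most.

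Among other endothelial genes, more fell than rose. Of 28 measured on a list of 35 other endothelial genes, 11 fell, 3 rose and 14 did not pass, with a median of -0.24. Over all genes 22.7% were called lower and 21.9% higher. Ramp2, a subunit of the adrenomedullin receptor, fell by 0.97 ± 0.09 (adjusted p = 2.3e-05), and Esam, an endothelial junction molecule, by 0.79 ± 0.09 (adjusted p = 8.5e-05). Rasip1, a Ras-interacting protein of vessel lumen formation, fell by 0.93 ± 0.15 (adjusted p = 9.9e-04). Ptprb, the phosphatase that acts on Tie2, fell by 0.90 ± 0.08 (adjusted p = 3.0e-05) to culture values within the bacterial range. Rising were Klf4, a transcription factor also used outside endothelium, by 0.95 ± 0.22 (adjusted p = 0.00623), and the lipid receptor S1pr1 by 0.71 ± 0.10 (adjusted p = 5.0e-04), whose further probe set gave -0.23 (adjusted p = 0.0578). Ets1, named after its values were seen, gave 0.61 ± 0.22 with adjusted p = 0.0473, a call that ended when any 1 of MesE11 replicates 1 to 3 or MesPC replicates 1 to 3 was left out (adjusted p = 0.0743 to 0.131), under quantile normalization (0.0615), under median centring (0.0577) and with the random block (0.0776).

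Among the other VEGF ligands, receptors and co-receptors, 4 of 10 rose and 0 fell, against 21.9% and 22.7% of all genes. The list counts proteoglycans as co-receptors. Of the 4 that rose, only Vegfc is a VEGF ligand, and Sdc2, Gpc1 and Hspg2 are proteoglycans. Without MesE11 replicate 3 the rises were 2. There was 1 fall without MesPC replicate 2, under each of the 3 other scalings and with MesPC arrays 1 to 3 alone. With arrays 4 to 6 alone the falls were 2. Sdc2, a heparan sulfate proteoglycan that binds growth factors, rose by 1.84 ± 0.11 (3.59-fold, adjusted p = 1.3e-06), and its further probe set by 1.41. Vegfc, the lymphatic VEGF ligand, rose by 0.41 ± 0.07 (adjusted p = 0.00113). The proteoglycan Gpc1 rose by 0.23 ± 0.07 (adjusted p = 0.0209), a call that ended under all 3 other scalings and without MesE11 replicate 3 (adjusted p = 0.0974). Hspg2 (perlecan), named after its values were seen, gave 0.45 ± 0.15 with adjusted p = 0.0330, lost without any one tissue array or MesPC replicate 1 or 3 (adjusted p = 0.0568 to 0.123). The Gpc1 and Hspg2 calls also ended with the random block (adjusted p = 0.155 and 0.122). Not past the threshold were the ligands Vegfb (0.11 ± 0.08) and Pgf (-0.20 ± 0.07, adjusted p = 0.0503). Pgf passed it without MesPC replicate 2 (adjusted p = 0.0469) and under the 3 other scalings. The lymphatic receptor Flt4 (-0.06 ± 0.09) and the co-receptor Nrp1 (-0.41 ± 0.22) did not pass either. All 4 were named after their values were seen. With MesPC arrays 1 to 3 alone Nrp1 fell (-0.79, limma's adjusted p = 2.8e-05), and with arrays 4 to 6 alone Pgf did (-0.28, adjusted p = 0.0105).

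Angiopoietin-related ligands were represented by 3 of 5 genes. Angptl4 fell by 0.42 ± 0.10 (adjusted p = 0.00884). Angpt2, the Tie2 ligand that destabilises vessels, gave -0.29 ± 0.07 (adjusted p = 0.00983) with every value inside the bacterial range, and its call ended under quantile normalization, with the random block and without MesE11 replicate 1 (adjusted p = 0.0508), which leaves 1 fall in the list. Of 10 genes of endoglin, TGF-beta and BMP signalling in endothelium, Smad5, a BMP signal transducer, rose by 0.40 ± 0.07 (adjusted p = 0.00118; 0.76 and 0.13 on its further probe sets, the latter with adjusted p = 0.256) and Acvrl1, the ALK1 receptor that works with endoglin, fell by 0.27 ± 0.06 (adjusted p = 0.00513). The Acvrl1 call ended under quantile normalization (adjusted p = 0.127) and with the random block (adjusted p = 0.0960). That list held 1 rise and 1 fall among its 10 genes, against 21.9% and 22.7% of all genes. Falls in it were 2 without MesE11 replicate 1 or MesPC replicate 2, and rises 2 without MesPC replicate 4.

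Genes of the blood-brain barrier split evenly, with 5 rising and 5 falling of 14 measured, against 21.9% and 22.7% of all genes. Slco1c1, the thyroxine transporter of brain vessels, fell by 2.18 ± 0.12 (4.53-fold, adjusted p = 7.2e-07) into the bacterial range, and the glucose transporter Slc2a1 by 0.88 ± 0.08 (adjusted p = 3.3e-05). Rises were seen in Tfrc, the transferrin receptor (1.08 ± 0.05, adjusted p = 2.9e-07), in Tjp1, the junction scaffold ZO-1 (0.92 ± 0.09, adjusted p = 2.9e-05), in the amino acid transporter Slc7a5 (0.79 ± 0.09) and in the lactate transporter Slc16a1 (0.44 ± 0.11, adjusted p = 0.0122, and 0.0593 without MesE11 replicate 2). Many cells other than endothelium use these 4 genes. The remaining calls, Lsr (-0.71), F11r (-0.70), Abcb1a (-0.28) and Cldn12 (0.33), were named after their values were seen. With the random block the calls of Slc16a1, Abcb1a and Cldn12 ended (adjusted p = 0.0738, 0.112 and 0.0632).

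Vegfa is a target of the hypoxia-inducible factors. Of 26 genes of that pathway 10 rose and 3 fell, against 21.9% and 22.7% of all genes. The rises were 6 without MesE11 replicate 3. Falls were 1 without MesE11 replicate 2 and 6 with MesPC arrays 1 to 3 alone. Egln3, a hydroxylase that hypoxia-inducible factor induces, rose by 1.73 ± 0.09 (adjusted p = 6.1e-07), and Pfkfb3, a regulator of glycolysis, by 0.46 ± 0.05 (adjusted p = 1.4e-04), with 0.22 (adjusted p = 0.149) on its further probe set. Epas1, which encodes HIF-2alpha, rose by 1.47 ± 0.07 (2.76-fold, adjusted p = 3.1e-07) on its brightest probe set. Its further probe set gave 0.11 (adjusted p = 0.175), and the mean of its probe sets gave 0.79. The hydroxylase gene Egln1 rose by 0.45 ± 0.09 (adjusted p = 0.00250) on its brightest probe set. Its further probe set went the other way, by -0.19 (adjusted p = 0.0589), with all 6 culture values below tissue. The mean of the Egln1 probe sets gave 0.13 (adjusted p = 0.140). Falling were Slc2a3 (-0.83 ± 0.12), a neuronal glucose transporter, the glycolytic gene Tpi1 (-0.33 ± 0.09, adjusted p = 0.0143, and 0.0712 or 0.0604 without MesE11 replicate 1 or 2) and, named after its values were seen, Ddit4 (-0.26 ± 0.08, adjusted p = 0.0237, and 0.0990 without MesE11 replicate 2). With the random block the Tpi1 and Ddit4 calls ended (adjusted p = 0.138 and 0.213). Hif1a itself gave -0.01 ± 0.05 (adjusted p = 0.942) on its brightest probe set, while a further one was lower, by -0.22 ± 0.07 (adjusted p = 0.0224), with all 6 culture values below tissue; Hif1a was also named after its values were seen.

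Pericytes ensheath brain vessels. Of 13 pericyte and mural genes 6 fell and 1 rose (2 without MesPC replicate 5), against 22.7% and 21.9% of all genes. Rgs5, a regulator of G protein signalling that marks pericytes, fell by 2.27 ± 0.08 (4.83-fold, adjusted p = 7.9e-08) into the bacterial range. The potassium channel genes Abcc9 and Kcnj8 fell by 1.13 ± 0.12 and 0.61 ± 0.11 (adjusted p = 5.9e-05 and 0.00143). Of the 6 culture values, 6 for Abcc9 and 5 for Kcnj8 lay in the bacterial range. The mean of the Abcc9 probe sets gave -0.47, and its further probe sets read in that range on all arrays. Higd1b gave -0.28 ± 0.07 (adjusted p = 0.00977). Pdgfrb, the PDGF receptor that fibroblasts also carry, rose by 0.37 ± 0.09 (adjusted p = 0.00776). With the random block the Higd1b and Pdgfrb calls ended (adjusted p = 0.127 and 0.0606).

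Fewer list genes were called when the culture sets entered as a random block. All 7 calls among the 8 genes described here remained, while over all genes 13.2% were then higher and 9.11% lower. The counts became 2 higher and 6 lower for other endothelial genes, 2 and 0 for the VEGF family, 0 and 1 for angiopoietin ligands, 1 and 0 for endoglin signalling, 3 and 4 for the barrier, 5 and 1 for the hypoxia list, and 0 and 3 for mural genes. For the cell type lists they were 0 and 1 (platelet), 0 and 5 (leukocyte), 0 and 6 (erythroid), 12 and 1 (fibroblast), 6 and 0 (astrocyte) and 0 and 8 (neuronal).

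**Figure D2:**
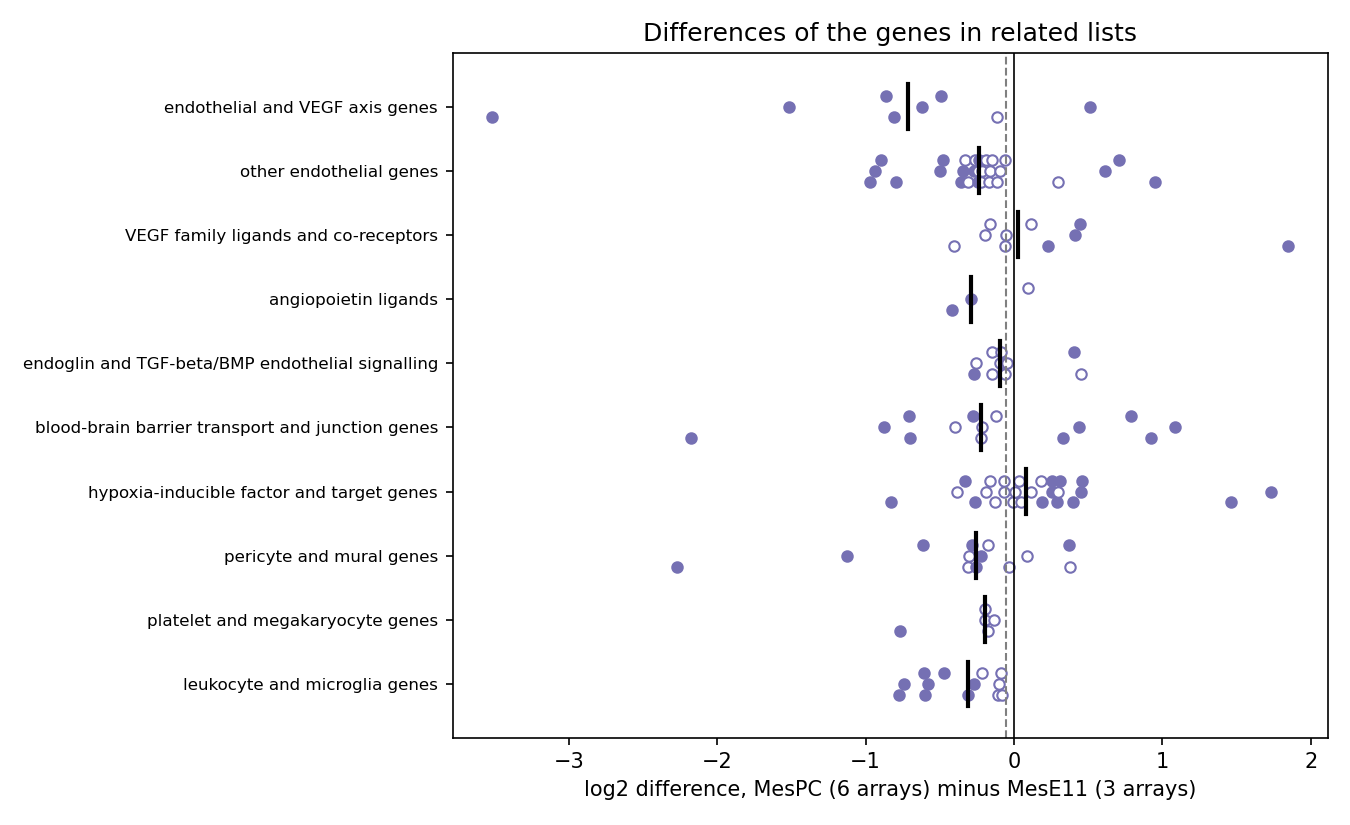
Each point is the log2 difference, MesPC minus MesE11, of 1 gene in the list named at the left, filled where limma's adjusted p is under 0.05; black bars are list medians and the dashed line is the median of all genes, -0.06. The 8 genes described here have a median of -0.72 and the VEGF family 0.03.

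The culture arrays formed separate sets, which the labels do not describe. Pearson's r across probe sets was 0.997 to 0.998 within replicates 1 to 3 and within replicates 4 to 6, and 0.982 to 0.987 between them. The descriptions speak of 3 culture arrays where 6 are labelled, and the sets are known only by their replicate numbers, so the contrast compares arrays, not conditions. Summed intensity of the dopaminergic and neuronal genes was 14551 to 16172 in replicates 1 to 3 and 30306 to 31521 in replicates 4 to 6, and the part of this in the differences below was not tested.

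Between the sets, replicates 4 to 6 minus 1 to 3, Kdr was lower and Vegfa higher, and 6 of the 8 genes did not pass. Over all genes 15.2% were called lower and 17.5% higher. Kdr differed by -0.32 ± 0.09, 1.25-fold (adjusted p = 0.0154), and all values of replicates 4 to 6 lay below those of 1 to 3. Its call ended under quantile normalization (-0.24, adjusted p = 0.0770), under ribosomal centring (-0.24, adjusted p = 0.109), without MesPC replicate 1 (adjusted p = 0.0673) and without MesPC replicate 4 (adjusted p = 0.0676). Vegfa differed by 0.28 ± 0.07, 1.22-fold (adjusted p = 0.00599), again without overlap, but its further probe set gave -0.08 (adjusted p = 0.353) and the mean of both 0.10 (adjusted p = 0.220).

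For Cldn5 and Tie1 the sets did not overlap either, with differences of -0.19 ± 0.08 (adjusted p = 0.0961) and -0.20 ± 0.07 (adjusted p = 0.0574). Both passed in some alternatives: Cldn5 without MesE11 replicate 2 (0.0330) or 3 (adjusted p = 0.0471), and Tie1 under median centring (0.0407) and without MesE11 replicate 3 (0.0314) or MesPC replicate 6 (adjusted p = 0.0452). Under ribosomal centring limma's adjusted p was 0.374 for Cldn5 and 0.390 for Tie1. All 6 culture values of Cldn5 and 2 of Tie1 lay in the bacterial range, so the Cldn5 difference is between readings that cannot be told from background. Sets lay wholly below in 3 of the 8 genes and wholly above in 1, against 26.0% and 22.4% of all genes. Vwf (-0.13 ± 0.07), Eng (-0.11 ± 0.08) and Pecam1 (0.01 ± 0.07) overlapped. Against tissue, whose arrays both contrasts share, the differences in replicates 1 to 3 and then 4 to 6 were -3.42 and -3.61 for Cldn5, -1.35 and -1.67 for Kdr, and -0.77 and -0.97 for Tie1. For Vegfa they were 0.37 and 0.65, and for Flt1 -0.06 (adjusted p = 0.506) and -0.18 (adjusted p = 0.0359). The Flt1 call in replicates 4 to 6 ended under quantile normalization (-0.0230, adjusted p = 0.757) and without MesE11 replicate 1 (adjusted p = 0.0627), MesE11 replicate 3 (0.0911), MesPC replicate 4 (0.150) or MesPC replicate 5 (0.0808). Called lower were 6 of 8 in replicates 1 to 3 and 7 of 8 in 4 to 6, against 27.3% and 30.5% of all genes, and Vegfa was higher in both, against 26.3% and 24.2%.

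**Figure D3:**
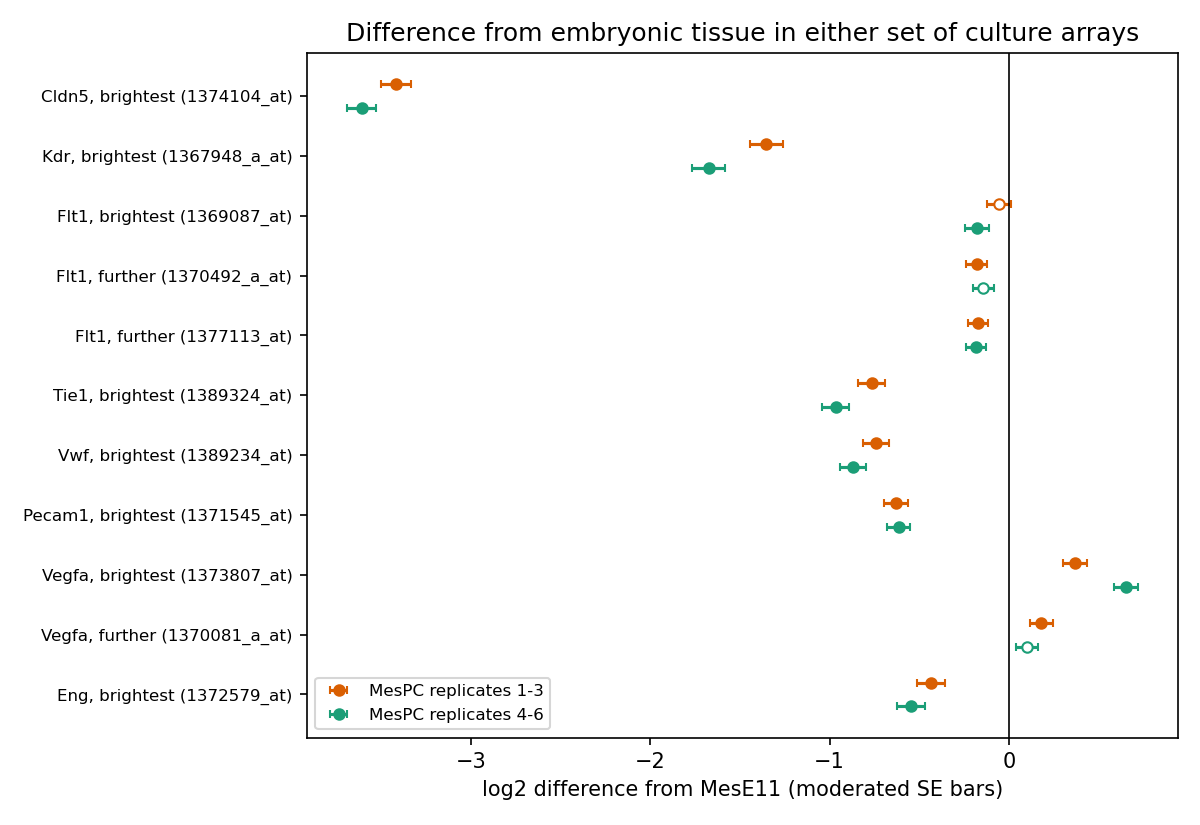
Log2 difference from MesE11 (3 arrays) of MesPC replicates 1 to 3 and 4 to 6 (3 arrays each) for all 11 probe sets, with moderated standard error bars; filled points passed limma's adjusted p of 0.05. Both sets lie on the same side of 0 for each probe set, with Cldn5 at -3.42 and -3.61 and the brightest Vegfa probe set at 0.37 and 0.65.

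Of the 28 other endothelial genes, 11 were lower in replicates 4 to 6 and 2 higher, against 15.2% and 17.5% of all genes. The 2 higher were Rasip1 (0.48) and Tal1 (0.91 ± 0.10, adjusted p = 1.6e-05). Apln, the apelin ligand of endothelial tip cells, read 8.07 to 8.26 in tissue, 9.06 to 9.35 in replicates 1 to 3 and 7.73 to 7.82 in replicates 4 to 6, so that on this probe set the culture sets lay on opposite sides of tissue. The difference between sets was -1.41 ± 0.08 (adjusted p = 3.5e-08). A further Apln probe set gave a smaller one, -0.60 ± 0.11 (adjusted p = 0.00120), and there replicates 1 to 3 overlapped tissue (0.24, adjusted p = 0.0911). The sialomucin Emcn was lower in replicates 4 to 6 by -0.56 ± 0.07 (adjusted p = 7.2e-05). Nrp1, the VEGF co-receptor that neurons also carry, was higher there by 0.77 ± 0.08 (adjusted p = 6.3e-06), and by 0.66 (adjusted p = 1.7e-05) on its further probe set. That further probe set put replicates 1 to 3 below all tissue values (-0.45, adjusted p = 1.9e-04) and replicates 4 to 6 above them (0.22, adjusted p = 0.0269). Tal1, Apln, Emcn and Nrp1 were named after their values were seen. Of 14 barrier genes 8 were lower in replicates 4 to 6 and 0 higher, against 15.2% and 17.5% of all genes.

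Profiles over the 9 arrays were compared for the 4 genes that span at least 1 log2 unit, among 1490 genes that do so too. The measure was Pearson's r over arrays that share the 3 groups, given as a description. Nearest to Cldn5 were Hbb, a globin (0.998), Plin2, a lipid droplet protein (0.997), and Sncg (0.997). For Kdr they were the globin Hbe1 (0.990), Crabp1, a retinoic acid binding protein (0.988), and Mecom (0.986). Tie1 was nearest to Esam (0.995), Ftcd (0.987) and Acsl5 (0.986), and Vwf to the globins Hba-a3 (0.993) and Hbg1 (0.990) and to Crabp1 (0.987). Cldn5 spanned 3.84, Kdr 1.95, Tie1 1.19 and Vwf 1.07 log2 units, and the other genes under 1.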

How the data were processed

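Expression was measured on 9 Affymetrix rat arrays, 3 with RNA of embryonic midbrain tissue (MesE11) and 6 with RNA of primary cultures (MesPC), grouped by the sample titles. The deposited values are log2 intensities that the authors made with RMA (named in the submitters' processing notes, version not given). RMA subtracts background, scales the arrays alike and combines the probes of a set, so each value is relative to the other probe sets of its array. The table held 15923 probe sets; 57 controls were left out and 15866 tested.

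Symbols came from the array's annotation: 12783 probe sets had 1 symbol, 312 several and 2771 were not listed. A RefSeq table of GRCr8, used for names only, matched the Entrez numbers of all 11 probe sets of the described genes and changed 0 of their symbols. The brightest probe set by mean over 9 arrays stood for a gene. Models were fitted with limma 3.58.1 (lmFit, eBayes; R 4.3.3) to all 15866 probe sets with 2 groups, and again with 3 groups for the sets of culture arrays; p-values are two-sided, Benjamini-Hochberg adjusted over all probe sets, with a threshold of 0.05. The fit was tested on simulated data. Plots used matplotlib 3.10.9.

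The genes, lists and tests were chosen with earlier results of these data known. Named were all genes of the group and, per list, up to 4 called genes with no overlap between tissue and culture in the list's main direction and up to 2 in the other; for genes that span at least 1 log2 unit, the 3 genes with the most similar profile were also named. Names added after looking at values are marked as such. Same-numbered samples did not deviate together (r of -0.119 to 0.084 for the 3 pairs), so no pairing was used. The alternatives were other scalings, filters on dim probe sets, the mean over a gene's probe sets, a trended robust fit, blocks, each culture set alone and leaving out each array. The number of arrays limits the precision.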

Additional observations from a re-analysis of the deposited data

Results flagged for a closer look

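Values of 80 probe sets named in the text were looked at for single arrays far from the others of their group and for culture sets on opposite sides of tissue. Among the 6 culture arrays, 1 array stood apart from the rest in 8 probe sets. The rule flags about 1 in 20 groups by chance only where all 6 values come from 1 even group. The culture arrays form separate sets, so the 8 cannot be compared with that rate. MesPC replicate 4 was the distant array for both further Flt1 probe sets (5.99, the highest, and 4.97, the lowest), for Ptprb (5.80, lowest), for Pfkfb3 (9.13, highest) and for Pf4 (7.19, lowest). MesPC replicate 6 was lowest for Slc7a5 (10.97) and for Mlc1 (10.58), an astrocyte membrane protein. MesPC replicate 5 was highest for Abcc9 (5.93). Flt1 and Abcc9 read within the range of the bacterial controls there. For Apln all 3 arrays of MesPC replicates 1 to 3 lay above tissue and all 3 of replicates 4 to 6 below it, and the sets differed by -1.41 on the log2 scale (limma's adjusted p = 3.5e-08). A further Apln probe set did not show this pattern, since MesPC replicates 1 to 3 overlapped tissue there. The further Nrp1 probe set described above also had its culture sets on opposite sides of tissue, with replicates 4 to 6 the higher.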

How the results depend on the processing

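The 6 falls and the rise of the brightest Vegfa probe set passed the threshold in every alternative in which they were measured (18 settings for each fall, 20 for Vegfa). Filters on dim probe sets removed genes: without the dimmest 40% or 60%, Vegfa alone was left of the 8, so 1 gene was called in MesPC minus MesE11, in either set against tissue and between the sets. Calls in the pathway lists went from 99 to 60 and 39 there, since fewer genes were tested, and to 67 with the random block. Between the sets the 2 calls became 1 under quantile normalization, under ribosomal centring and when a gene's probe sets were averaged. The first 2 settings lost Kdr, and averaging lost Vegfa, whose further probe set did not differ. The cause was not tested. Leaving out 1 array gave 7 to 7 calls for MesPC minus MesE11, 84 to 102 in the lists, 7 to 7 and 7 to 8 for the sets against tissue and 1 to 4 between sets, with 4 without MesE11 replicate 3 and 1 without MesPC replicate 1 or 4. Apln changed sign with MesPC arrays 4 to 6 alone (-0.41). With the replicate block over MesE11 1 to 3 and MesPC 1 to 3, 7 genes were called and 107 in the lists. Deviations of same-numbered samples from their group means correlated at 0.084, -0.119 and -0.111. The numbers were therefore not used as a pairing, though so few values cannot exclude one. Quantile normalization, median centring and ribosomal centring moved the median of all genes by -0.0218, -0.0370 and -0.0766 on the log2 scale. Probe sets in the bacterial range, among them Pecam1 and 2 of Flt1, limit what can be said of levels.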
